A study of Mus musculus with 4 samples.

Results

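The 10 genes described here encode receptors of the tumor necrosis factor (TNF) receptor family: Tnfrsf1a, Tnfrsf1b, Tnfrsf9, Tnfrsf10b, Tnfrsf11b, Tnfrsf12a, Tnfrsf21, Fas, Ltbr and Cd40. They were taken by name from the 21840 genes of the deposited table, and all 10 were found. RNA was sequenced from 4T1, an established mouse mammary carcinoma line labelled epithelial and wild type, in 2 libraries after phosphate-buffered saline (PBS) and in 2 after recombinant IL-17A (rIL17). The labels give neither dose nor time of treatment. They do not say if replicate libraries were made from separate cultures, so p-values measure the spread between libraries, which may be technical.

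Receptors of this family are trimeric cell-surface proteins that bind ligands of the TNF family. Some carry a death domain in their cytoplasmic part, through which adaptors such as FADD and TRADD can recruit caspase-8 and start apoptosis. The others bind TRAF proteins directly and signal to canonical or noncanonical NF-kB and to cell survival, and TNFR1, the product of Tnfrsf1a, can do both through TRADD. Another kind is secreted and holds ligands away from signalling receptors. IL-17A itself signals through IL-17RA, IL-17RC, Act1 and TRAF6, and acts on many of the same NF-kB, AP-1 and C/EBP target genes as TNF.

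None of the 10 receptors passed the test for a difference between rIL17 and PBS. In limma, 0 of 10 passed at an adjusted p below 0.05 among the 20677 genes tested, those averaging at least 1 normalized count in PBS or rIL17, and 0% of all genes did. A stricter filter asked for 10 or more normalized counts in both libraries of PBS or of rIL17 and an average CPM (counts scaled to the library total) of 1 or more, and 9 of the 10 receptors met it. With it 0 passed in limma, where 0.807% of 12515 genes did. At an unadjusted p below 0.05, 3 of 10 receptors passed over all genes tested (12.8% of all genes) and 4 of 9 under the stricter filter (16.6%). The groups did not overlap for 6 receptors (45.4% of all tested genes). Both rIL17 libraries lay above both PBS libraries for 2 receptors (25.4% of all tested genes) and below both for 4 (20.0%). The median log2 fold change was 0.01 for the receptors and 0.01 for all genes tested. An exact permutation test of 2 against 2 libraries cannot give a two-sided p below 0.33, so none was used for single genes.

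With 1 library left out under the stricter filter, the calls depended on which one it was. Without PBS replicate 1, limma called 1 of 9 receptors (Tnfrsf12a), where 21.8% of all genes passed. Without PBS replicate 2 it called 3 of 9 (Tnfrsf12a, Tnfrsf1a and Tnfrsf21), where 5.48% of all genes passed. In these fits the lone PBS library is assumed to vary like the rIL17 libraries. Without rIL17 replicate 1 or 2 it called 0 of 9, where 0.00799% and 0.0320% of all genes passed, and no gene of the pathway lists below passed there either. With a correction for GC content under the stricter filter it called 0 of 9, where 2.41% of all genes passed.

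Depth was 17511450 to 17970104 reads assigned to genes per library, and 1 normalized count stood for about 1 read. PBS replicate 2 stood apart from the other libraries on the first principal component (-36.5, against -5.2 for PBS replicate 1 and 24.0 and 17.7 for rIL17). Transcripts of low GC content were lower in it: for the 729 genes below 40% GC under the stricter filter, the median log2 difference of PBS replicate 2 from PBS replicate 1 was -0.47, and that of rIL17 from PBS was 0.54. The 10 receptors have transcripts of 42.9% to 60.4% GC, and each receptor's value below is given also with a correction for GC content where that moves it by over 1.5 times or turns its sign. Tnfrsf11b, at 42.9% GC, has no corrected value, since the correction was run only with the stricter filter, which left it out. Of the epithelial markers, Krt8 had 25498 to 32665 and Krt18 15966 to 20159 normalized counts over the libraries. The 6 epithelial markers summed to 53688 and 57922 in PBS and 45711 and 47763 in rIL17. Of 8 leukocyte markers, 3 were in the table, and Ptprc, the pan-leukocyte gene, had 0 reads in either PBS library and 3.02 and 2.01 normalized counts in rIL17. The others were Csf1r, at 1.01 to 3.98, and the macrophage marker Cd68, at 115 and 118 in PBS and 108 and 127 in rIL17. The 3 endothelial markers in the table summed to 6.87 to 8.02 per library. Pdgfra, listed as a fibroblast marker, had 2328 and 2462 in PBS, against 2855 and 2862 in rIL17, while Col1a2 had 0 to 2.01 normalized counts in each library. The other fibroblast markers in the table were lower in both rIL17 libraries, Col1a1 at 51.0 and 37.8 against 29.2 and 30.1 and Pdgfrb at 36.3 and 33.8 against 24.1 and 26.1. The part of such cells in the results was not tested.

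Promoter windows, 250 bases before to 50 after an annotated start (RefSeq, GRCm38.p6), were at hand for 7 of the 10 receptors, in 8 windows. They were searched on both strands for the NF-kB consensus, for the AP-1 motif TGANTCA and for the C/EBP motif TTGCNNAA, since factors of these families act downstream of IL-17A. Fas and Tnfrsf9 are shown because theirs were the only windows of the 8 with a match. Capitals mark the matches: TGAGTCA in Fas at 211 bases before the start, and in Tnfrsf9 overlapping NF-kB matches from 43 bases before the start and TGAGTCA from 15 bases before it.
Fas, chr19:34290409-34290708, plus strand: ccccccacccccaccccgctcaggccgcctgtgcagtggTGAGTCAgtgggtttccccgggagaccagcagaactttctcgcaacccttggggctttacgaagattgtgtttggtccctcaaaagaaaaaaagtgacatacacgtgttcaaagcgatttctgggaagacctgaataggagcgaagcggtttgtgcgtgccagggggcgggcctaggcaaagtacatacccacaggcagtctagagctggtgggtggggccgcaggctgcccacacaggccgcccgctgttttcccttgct
Tnfrsf9, chr4:150927749-150928048, plus strand: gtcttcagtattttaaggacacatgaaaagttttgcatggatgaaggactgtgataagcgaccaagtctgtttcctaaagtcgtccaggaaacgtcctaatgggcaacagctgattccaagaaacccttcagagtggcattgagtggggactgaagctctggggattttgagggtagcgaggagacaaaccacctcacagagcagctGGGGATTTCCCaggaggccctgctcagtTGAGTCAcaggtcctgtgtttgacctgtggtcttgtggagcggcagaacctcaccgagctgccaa
The Tnfrsf9 window belongs to the downstream of 2 annotated starts, and the upstream one held none of the motifs. Of all 32851 windows of the same length, 4.51% held the NF-kB consensus, 7.81% the AP-1 motif and 10.8% the C/EBP motif, which none of the 8 held. A match is a description of the letters and shows no binding. The values of both genes follow with their groups.

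Among the 4 death-domain receptors, Tnfrsf1a was higher and Tnfrsf21 lower in both rIL17 libraries, while Tnfrsf10b and Fas overlapped between the groups. Tnfrsf1a (ENSMUSG00000030341, chromosome 6, 125349362 to 125362484, plus strand of mm10) encodes TNFR1, the receptor through which TNF reaches both NF-kB and cell death. Its normalized counts were 1480 and 1758 after PBS and 1968 and 1927 after rIL17. The rIL17 libraries lay close together above both PBS libraries, and the gap between the PBS libraries was wider than that between PBS replicate 2 and either rIL17 library. The log2 fold change was 0.27 (SE 0.10, 95% interval -0.02 to 0.56, limma adjusted p = 0.411, or 0.237 with the stricter filter). Without PBS replicate 2 it was 0.40 and passed under the stricter filter (limma adjusted p = 0.00249). It was 0.15 without PBS replicate 1 (adjusted p = 0.177 in limma with that filter), and the adjusted p was 0.900 and 0.592 without rIL17 replicates 1 and 2.

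Tnfrsf21 (ENSMUSG00000023915, chromosome 17, 43016555 to 43089189, plus strand) encodes DR6, a death receptor best known from neurons and T helper cells. Its counts were 494 and 438 in PBS and 368 and 366 in rIL17. Both rIL17 libraries were lower than both PBS libraries, by more than the gap within PBS. The mean went from 466 ± 40.3 to 367 ± 1.32 (SD, n = 2 per group), a log2 fold change of -0.34 (SE 0.09, 95% interval -0.59 to -0.09). It did not pass in limma (adjusted p = 0.373, or 0.201 with the stricter filter), except without PBS replicate 2 under the stricter filter (-0.43, adjusted p = 0.0456). With the other libraries left out in turn under that filter, the limma adjusted p was 0.168 to 0.878.

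Tnfrsf10b (ENSMUSG00000022074, chromosome 14, 69767472 to 69784411, plus strand) encodes DR5, the death-inducing TRAIL receptor of the mouse. It had 804 and 793 normalized counts in PBS, against 805 and 785 in rIL17. The values of the groups interleaved. The 95% interval of the ratio ran from 0.90- to 1.10-fold in limma, the narrowest of the 10 receptors (log2 fold change -0.01, and 0.01 with the GC correction). Fas (ENSMUSG00000024778, chromosome 19, 34290666 to 34327772, plus strand), the receptor of Fas ligand and the classical death receptor, had 331 and 313 in PBS, against 378 and 298 in rIL17. The rIL17 libraries lay on either side of both PBS libraries. Its log2 fold change was 0.06 (95% interval -0.36 to 0.48, limma adjusted p = 0.877), -0.11 without rIL17 replicate 1 and -0.09 with the GC correction.

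The 5 TRAF-binding receptors held the highest and some of the lowest levels of the 10. Tnfrsf12a (ENSMUSG00000023905, chromosome 17, 23675445 to 23677468, minus strand of mm10) encodes Fn14, the receptor of TWEAK, a growth-factor-inducible protein found on many carcinoma cells. It stood at 6965 and 7988 normalized counts in PBS and 5595 and 6122 in rIL17. Both rIL17 libraries were lower than both PBS libraries. The mean was 7477 ± 723 in PBS and 5859 ± 372 in rIL17 (SD, n = 2 per group), a ratio of 0.78, and the log2 fold change was -0.35 (SE 0.09, 95% interval -0.62 to -0.08). Neither filter gave a call in limma (adjusted p = 0.373 over all genes tested, and 0.141 with the stricter filter, the smallest of the 9 receptors tested there). It passed under the stricter filter without PBS replicate 1 (-0.45, limma adjusted p = 1.48e-05) and without PBS replicate 2 (-0.25, adjusted p = 0.0285), and not without rIL17 replicate 1 (-0.29, adjusted p = 0.875) or 2 (-0.41, adjusted p = 0.436).

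Tnfrsf9 (ENSMUSG00000028965, chromosome 4, 150914562 to 150946102, plus strand), whose promoter letters are shown above, encodes 4-1BB, a costimulatory receptor of activated T and NK cells. It had 135 and 141 normalized counts in PBS, against 95.5 and 90.3 in rIL17. Each pair of replicates lay close together, and the groups were well apart. From 138 ± 4.11 to 92.9 ± 3.70 (SD, n = 2 per group), the log2 fold change was -0.57 (SE 0.11, 95% interval -0.88 to -0.26), a ratio of 0.67. It stayed between -0.53 and -0.61 with any 1 library left out and was -0.57 with the GC correction. The limma adjusted p was 0.370 over all genes tested and 0.167 under the stricter filter, so it was not called.

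Tnfrsf1b (ENSMUSG00000028599, chromosome 4, 145213463 to 145246870, minus strand) encodes TNFR2, the TNF receptor without a death domain. Its libraries stood at 2214 and 2229 normalized counts in PBS and 2343 and 2548 in rIL17. Both rIL17 libraries were above both PBS libraries, by less than the gap between the rIL17 libraries in the case of rIL17 replicate 1. The log2 fold change was 0.14 (SE 0.06, 95% interval -0.03 to 0.31, limma adjusted p = 0.444). Ltbr (ENSMUSG00000030339, chromosome 6, 125306571 to 125313885, minus strand), encoding the lymphotoxin beta receptor, a main entry to noncanonical NF-kB, had 1178 and 1297 in PBS, against 1220 and 1283 in rIL17. Both rIL17 values lay between the PBS values. The 95% interval of its ratio was 0.88- to 1.17-fold (limma adjusted p = 0.924), and the sign of its log2 fold change of 0.02 turned with the scaling (-0.04 with upper-quartile scaling). With the GC correction it was 0.08. Ltbr and Tnfrsf1a lie on chromosome 6, with 35476 bases between them.

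Cd40 (ENSMUSG00000017652, chromosome 2, 165055627 to 165072948, plus strand), a receptor of B cells, dendritic cells and some carcinomas, was low. It had 18.6 and 35.8 normalized counts in PBS, against 27.1 and 40.1 in rIL17, and the replicate 2 library was the higher one in each group. The 95% interval ran from 0.53- to 3.03-fold (log2 fold change 0.34, SE 0.44, limma adjusted p = 0.748), and without PBS replicate 1 the value was -0.11. The difference between the group means was smaller than the gap between the PBS libraries.

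Tnfrsf11b (ENSMUSG00000063727, chromosome 15, 54250619 to 54278484, minus strand) encodes osteoprotegerin, the secreted decoy for RANKL and TRAIL. It had 21.6 and 12.9 normalized counts in PBS, against 12.1 and 10.0 in rIL17, so the groups were apart by less than 1 count. It was left out by the stricter filter. The log2 fold change was -0.56 (SE 0.37, 95% interval -1.63 to 0.50, limma adjusted p = 0.575), and it was -0.21 without PBS replicate 1 and -0.91 without PBS replicate 2.

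**Figure D1:**
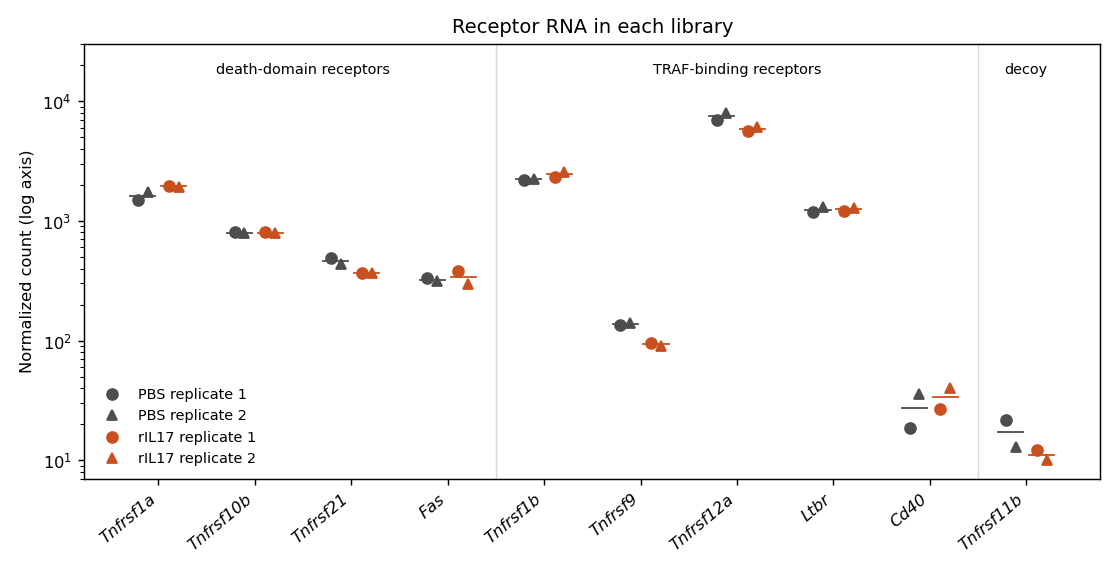
Normalized counts (log axis) of the 10 receptors in each of the 4 libraries, with PBS in gray and rIL17 in orange, replicate 1 as circles and replicate 2 as triangles, and group means as short lines. Tnfrsf9 sits at 135 and 141 in PBS and at 95.5 and 90.3 in rIL17, while the 4 values of Tnfrsf10b lie side by side at nearly the same height.

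**Figure D2:**
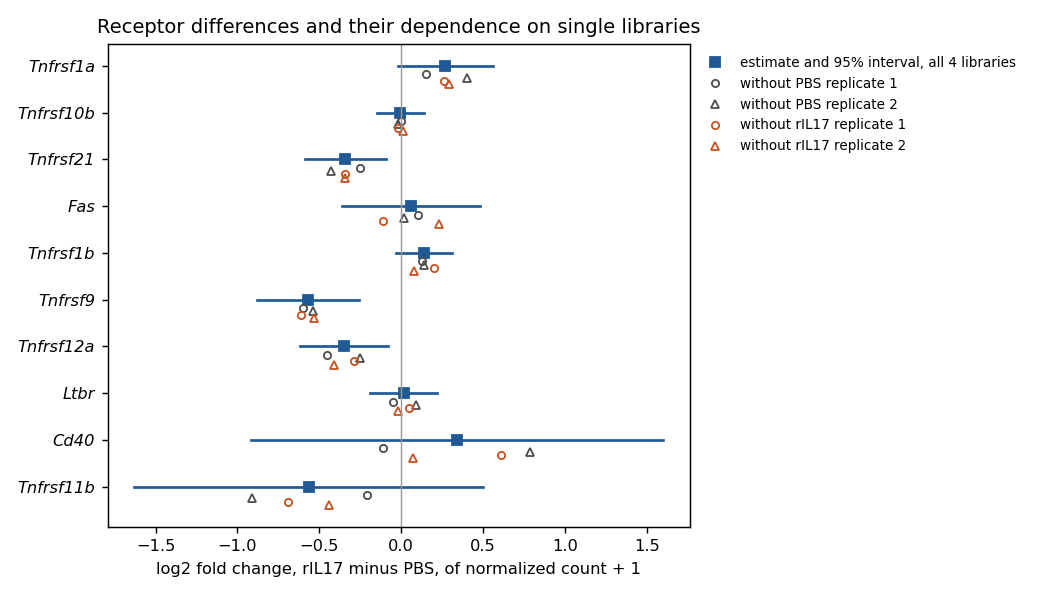
Log2 fold change (rIL17 minus PBS) of each receptor as a blue square with its 95% interval from limma, and below it the same value with each library left out (open symbols). The intervals of Tnfrsf21, Tnfrsf9 and Tnfrsf12a lie below 0 before adjustment over all genes, and the open symbols of Cd40 and Tnfrsf11b spread widest.

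Compared per length, as normalized counts per kilobase of annotated exon, Tnfrsf12a stood far above the others. Its level was 3605 and 4135 per kb in PBS and 2896 and 3169 in rIL17, at the 98.9th percentile of the tested genes. The next level was shared by Tnfrsf1a (571 to 760 per kb over the 4 libraries) and Tnfrsf1b (580 to 667), which overlapped, followed by Ltbr (501 to 551), which lay below Tnfrsf1b in all 4 libraries. Fas (144 to 183 per kb) and Tnfrsf10b (144 to 148) overlapped. Tnfrsf21 (89.1 to 120) and Tnfrsf9 (33.2 to 51.9) came next without overlap. Cd40 (5.47 to 11.8 per kb) and Tnfrsf11b (3.56 to 7.66) overlapped at the low end. Tnfrsf12a made up 62.7% and 64.4% of the summed per-kb level of the 10 receptors in PBS and 55.1% and 57.1% in rIL17. The ratio of Tnfrsf1b to Tnfrsf1a per kb, TNFR2 over TNFR1 at the RNA level, was 1.02 and 0.86 in PBS and 0.81 and 0.90 in rIL17, so the groups overlapped.

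**Figure D3:**
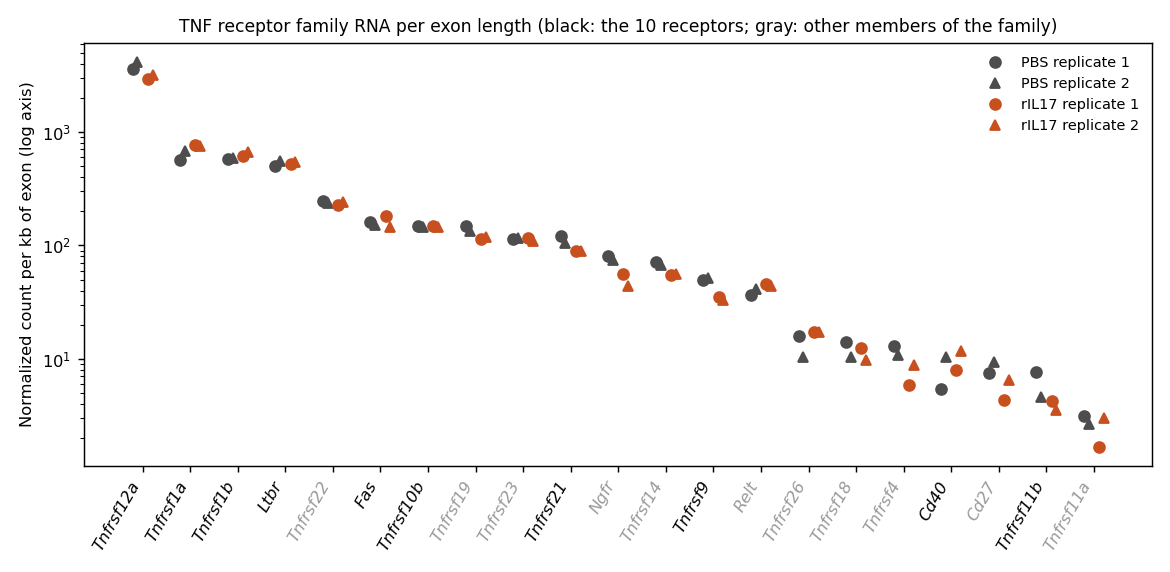
Normalized counts per kilobase of exon (log axis) in each library for TNF receptor family genes averaging 10 or more normalized counts in PBS or rIL17, ordered by level, with the 10 receptors named in black and other family genes in gray. Tnfrsf12a leads in every library, at 2896 to 4135 per kb.

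Of 18 other receptors of the family that were listed, 14 were in the table and tested, and 0 passed in limma under either filter (2 of 14 had an unadjusted p below 0.05 over all genes tested, beside 12.8% of all genes). Their median log2 fold change was -0.28, and 11 of 14 were below 0, beside 47.2% of all genes tested. Under the stricter filter, which left out 6 of them for few reads, the median of the other 8 was -0.09. Ngfr, the low-affinity nerve growth factor receptor, which also carries a death domain, had 279 and 256 normalized counts in PBS, against 192 and 150 in rIL17. Both rIL17 libraries were lower (log2 fold change -0.65, SE 0.16, limma adjusted p = 0.140 under the stricter filter), and it passed under that filter without PBS replicate 1 (-0.59, adjusted p = 0.0210) and without PBS replicate 2 (-0.71, adjusted p = 0.0206). Tnfrsf19, an orphan receptor also called TROY, had 699 and 641 in PBS, against 547 and 558 in rIL17 (-0.28, SE 0.07, limma adjusted p = 0.216 under the stricter filter). Tnfrsf14, the receptor HVEM for LIGHT and BTLA, was lower in both rIL17 libraries too, at 78.4 and 80.2 against 102 and 96.5.

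The mouse TRAIL decoy receptor genes Tnfrsf22 and Tnfrsf23 had log2 fold changes of -0.05 and -0.02. Their relative Tnfrsf26 had 51.0 and 33.8 normalized counts in PBS, against 55.3 and 55.2 in rIL17 (log2 fold change 0.40, SE 0.26, and 0.26 with the GC correction). These 3 genes are close relatives, so reads could be split between them. Relt, a receptor of lymphoid tissue, was higher in both rIL17 libraries (log2 fold change 0.22, SE 0.12). Tnfrsf4, Cd27, Tnfrsf18 and Tnfrsf11a, known from lymphocytes and osteoclasts, had means of 10.0 to 19.8 normalized counts in each group, with log2 fold changes of -0.67, -0.63, -0.12 and -0.33. None of the 4 passed in limma.

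Most ligand genes in the table had too few reads for the stricter filter. Of 18 ligand genes listed, 11 were in the table, 3 met the stricter filter and 0 passed in limma under either filter. At an unadjusted p below 0.05 in limma 0 passed too, beside 12.8% of all genes tested and 16.6% under the stricter filter. Tnf, the ligand of TNFR1 and TNFR2, had 3.92 and 0.994 normalized counts in PBS, against 3.02 and 6.02 in rIL17, around the floor of 3 reads. Tnfsf9, the ligand of 4-1BB, was the ligand with the most reads: 182 and 206 in PBS and 217 and 194 in rIL17. Per length it stood at 155 normalized counts per kb, the 72.5th percentile of the tested genes and within the range of Fas. Its groups overlapped (log2 fold change 0.08, SE 0.12), beside the -0.57 of its receptor gene Tnfrsf9. A test of that difference was not made. Tnfsf10, encoding TRAIL, the ligand of DR5, had 61.8 and 74.6 in PBS, against 64.3 and 45.1 in rIL17, with a log2 fold change of -0.33 (SE 0.25) that was -0.54 with the GC correction. Tnfsf13, encoding APRIL, and Ltb, encoding lymphotoxin beta, had means of 12.6 to 29.1 normalized counts in each group with overlapping groups.

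Of the 18 death adaptors, caspases and their inhibitors, 0 passed in limma under either filter (3 at an unadjusted p below 0.05 over all genes tested, beside 12.8% of all genes), and the median log2 fold change was 0.00. Bid, which links caspase-8 to mitochondria, had 1443 and 1475 normalized counts in PBS, against 1159 and 1214 in rIL17. Both rIL17 libraries were lower (-0.30, SE 0.05, limma adjusted p = 0.130 under the stricter filter), and it passed under that filter without PBS replicate 1 (adjusted p = 0.00800). Xiap, an inhibitor of caspases, had 1521 and 950 in PBS, against 2211 and 1987 in rIL17, a log2 fold change of 0.80 (SE 0.26). That value was -0.09 with the GC correction. The Xiap transcript has a GC content of 36.8%, in the range where PBS replicate 2 was low. The value was 0.46 without PBS replicate 2 and 1.14 without PBS replicate 1. With all libraries the limma adjusted p of Xiap was 0.155 under the stricter filter. The part of GC content and of PBS replicate 2 in the result was not tested. Birc2, encoding cIAP1, which ubiquitinates RIPK1 at TNFR1, had 0.27, and 0.07 with the GC correction. Without PBS replicate 1 it was 0.39, and with all libraries the limma adjusted p was 0.291 under the stricter filter. Casp6 had 0.23 (SE 0.06).

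Of 27 TRAF and NF-kB signalling genes, 0 passed in limma under either filter. At an unadjusted p below 0.05 in limma, 7 passed over all genes tested, beside 12.8% of all genes. Under the stricter filter, which all 27 met, 5 did, beside 16.6% of all genes. In both rIL17 libraries 9 lay below PBS (20.0% of all tested genes) and 4 above (25.4%), and the median log2 fold change was -0.04. Traf1, a TRAF that TNFR2, 4-1BB and CD40 bind, had 2052 and 2194 normalized counts in PBS, against 1683 and 1512 in rIL17. Its log2 fold change was -0.41 (SE 0.08, limma adjusted p = 0.370, or 0.0949 with the stricter filter), and it passed under the stricter filter without PBS replicate 1 (-0.46, adjusted p = 1.63e-04) or PBS replicate 2 (-0.36, adjusted p = 0.00995). Relb and Nfkb2 encode the pair of factors that noncanonical NF-kB signalling from LTBR, Fn14 and CD40 releases. Relb had 1589 and 1663 in PBS, against 1191 and 1306 in rIL17 (-0.38, SE 0.07), and Nfkb2 had 6558 and 7058 in PBS, against 5774 and 5680 in rIL17 (-0.25, SE 0.05). Both genes were lower in both rIL17 libraries. Under the stricter filter the limma adjusted p was 0.102 for Relb and 0.151 for Nfkb2. Relb passed there with the GC correction (-0.32, adjusted p = 0.0479), where 2.41% of all genes did. Nfkbia, the IkB-alpha gene, was higher in both rIL17 libraries (0.20, SE 0.06, limma adjusted p = 0.231 under the stricter filter). Tnfaip3, encoding the A20 brake on TNFR1 signalling, had -0.25 (SE 0.05, limma adjusted p = 0.164 under the stricter filter).

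BCL-2 family genes, which set the mitochondrial threshold for death, had 13 of 17 listed genes in the table. In limma 0 passed under either filter (3 of 13 at an unadjusted p below 0.05 over all genes tested, beside 12.8% of all genes). The median log2 fold change was -0.08, and it ran from -0.15 to 0.03 with each library left out. Bcl2l11, encoding the killer protein BIM, had 1824 and 1596 normalized counts in PBS, against 2073 and 2098 in rIL17. The log2 fold change was 0.29 (SE 0.08, limma adjusted p = 0.180 under the stricter filter), and 0.39 without PBS replicate 1. Bbc3, encoding PUMA, had 668 and 777 in PBS, against 558 and 603 in rIL17. Its log2 fold change was -0.31 (SE 0.10, limma adjusted p = 0.229 under the stricter filter), and -0.42 without PBS replicate 1. These killer genes lay on opposite sides of PBS. Bak1, an executioner of the family, had -0.19 (limma adjusted p = 0.280 under the stricter filter), and the survival genes Bcl2 and Mcl1 had 0.19 and 0.11.

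Among 5 genes of receptor shedding, 0 passed in limma under either filter (1 at an unadjusted p below 0.05 over all genes tested, beside 12.8% of all genes). Adam17, encoding the protease that sheds TNF, TNFR1 and TNFR2, had 2616 and 2373 normalized counts in PBS, against 2807 and 2478 in rIL17, with overlapping groups (log2 fold change 0.08, SE 0.09). Rhbdf1, a partner of ADAM17, had -0.01. Rhbdf2, encoding the related partner iRhom2, was lower in both rIL17 libraries (2012 and 1973 against 1714 and 1740, log2 fold change -0.21, SE 0.04). Adam10 had 2191 and 1437 in PBS, against 2623 and 2461 in rIL17, a log2 fold change of 0.52 (SE 0.23) that was 0.24 with the GC correction. Without PBS replicate 1 it was 0.82, and with all libraries the limma adjusted p was 0.243 under the stricter filter.

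**Figure D4:**
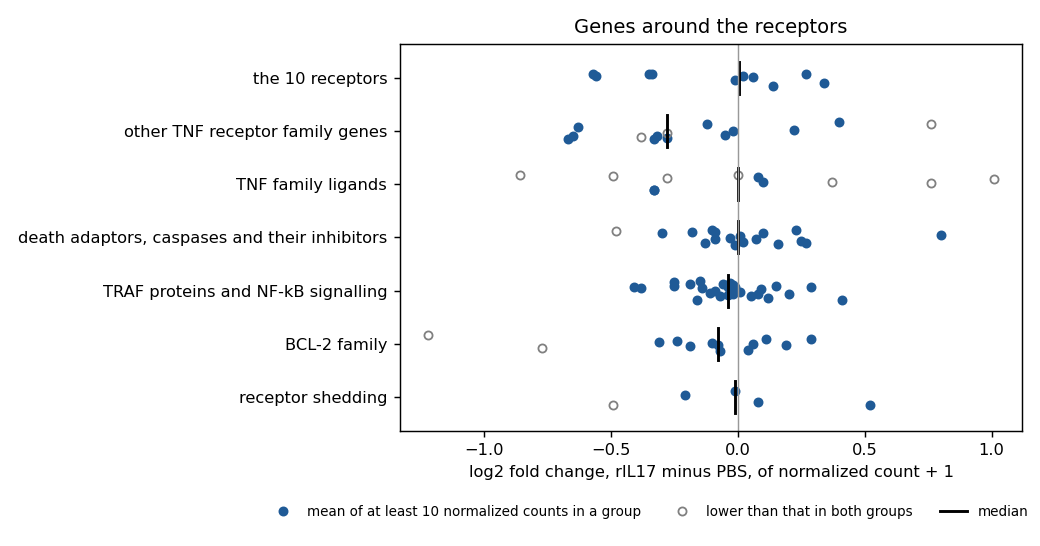
Log2 fold change (rIL17 minus PBS) of every tested gene of the 10 receptors and of the lists around them, with 1 point per gene, open points for genes with means under 10 normalized counts in both groups, and black bars at the medians. The medians run from -0.28 for the other receptors to 0.01 for the 10 receptors, and none of these genes passed in limma over all genes tested.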

How the data were processed

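Per the submitters' processing notes, CASAVA, HISAT2 2.0.5, featureCounts 1.5.0-p3 and mm10 were used. Neither the annotation release nor the strand setting of the counting is given in those notes. The deposited values are a normalized signal, read counts per gene that the authors divided by 1 factor per library: 100.0% of each library's values lay within 0.001 of a whole multiple of 1 step. Symbols were matched for 21819 of 21840 genes, and positions and exon lengths come from GENCODE M21. None of the 10 receptors shares annotated exon bases with another gene.

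From these values, limma 3.58.1 (R 4.3.3, eBayes with a mean-variance trend, treatment as the only term) was fitted over all genes on log2(normalized count + 1), a scale that understates the change of low genes, with Benjamini-Hochberg adjustment. Genes averaging at least 1 normalized count in PBS or in rIL17 were tested. Alternatives were other filters, scalings and pseudocounts, limma-voom, robust shrinkage, a replicate block, a GC correction (loess, span 0.3, run with the stricter filter) and each library left out. The members and the lists were chosen with earlier results of these data known. Named were all 10 receptors, up to 5 genes of each list with the smallest p under the stricter filter (1 of these is not reported here), every other receptor and ligand with a mean of at least 10 normalized counts in a group, and, after their values were seen, Tnf and the markers Krt8, Krt18, Ptprc, Csf1r, Cd68, Pdgfra, Pdgfrb, Col1a1 and Col1a2. The other listed genes that are not in the table were not analysed here.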

Additional observations from a re-analysis of the deposited data

How the results depend on the processing

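The count of receptors that passed stayed at 0 with no filter, the stricter filter, upper-quartile and total-count scaling, a pseudocount of 0.1 and limma-voom. It was also 0 with robust shrinkage under both filters and with limma-voom under the stricter filter, fits added after seeing the data. It was 1 of 9 (Tnfrsf12a) with the replicate block and the stricter filter (-0.35, limma adjusted p = 0.0116), where 1032 of 12515 genes passed. It was 1 of 9 (Tnfrsf12a) with the GC correction added to both (-0.29, adjusted p = 0.0292), where 395 of 12515 genes passed, and 0 with the replicate block alone. Same-numbered libraries deviated together by a correlation of 0.16 only, and nothing in the labels pairs them. With each library left out it was 0, and 0 to 3 under the stricter filter. Over all genes, the count of 0 became 101 with the stricter filter, 1 with total-count scaling, 1 with limma-voom (191 with the stricter filter), 302 with the GC correction and the stricter filter, 268 with robust shrinkage (153 with the stricter filter), and 1032 with the replicate block and the stricter filter, or 395 with the GC correction too. With each library left out it was 0. Under the stricter filter it was then 1 to 2734: 2734 and 686 without PBS replicates 1 and 2, and 1 and 4 without rIL17 replicates 1 and 2. The stricter filter tested fewer genes, and the share at an unadjusted p below 0.05 in limma was 16.6% there and 12.8% over all genes tested. The cause was not tested.

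With the replicate block and the stricter filter, 1032 of 12515 genes passed. Among them were 1 of 8 other receptors, 3 of 17 death adaptor and caspase genes, 3 of 27 TRAF and NF-kB genes and 1 of 4 shedding genes. Of the 27 TRAF and NF-kB genes, 2 passed with the GC correction (Relb and Tank), beside 302 of 12515 genes. With the block added to it 2 passed (Traf1 and Tank), beside 395 of 12515 genes. With robust shrinkage 1 passed (Traf1), beside 268 of 20677 genes. Tank, named after its values were seen, had -0.62 with the GC correction (limma adjusted p = 0.0282) and 0.05 without it. With each library left out under the stricter filter, the counts ran from 0 to 1 of 8 other receptors. They ran from 0 to 5 of 17 death adaptor and caspase genes and 0 to 8 of 27 TRAF and NF-kB genes. For the BCL-2 family the range was 0 to 3 of 11 genes, and for shedding 0 to 1 of 4. Each of these upper counts was reached without PBS replicate 1, where 21.8% of all genes passed. That fit rests on a lone PBS library.

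The signs of Tnfrsf1a, Tnfrsf1b, Tnfrsf9, Tnfrsf12a and Tnfrsf21 held under all 21 alternatives run. The sign of Tnfrsf11b held in the 11 that included it, none of them with the stricter filter or the GC correction. For these genes the groups did not overlap, so leaving out 1 library could not turn the sign. A change of filter, robust shrinkage and the replicate block leave the estimate as it is. Only the scalings, the pseudocount, limma-voom and the GC correction could have turned these signs. Ltbr turned to -0.04 with upper-quartile scaling and to -0.01 with total-count scaling and with limma-voom under both filters, and ran from -0.05 to 0.09 with libraries left out. Tnfrsf10b was 0.01 with the GC correction, alone and with the block, and ran from -0.02 to 0.01. Fas was -0.09 with the GC correction, alone and with the block, and ran from -0.11 to 0.23. Cd40 ran from -0.11 to 0.79. The cause of these turns was not tested. Cd40 and Tnfrsf11b had the fewest reads, 10.0 to 40.1 normalized counts per library, and the part of depth in their spread was not tested. Tests on reads recovered from the values were planned and not run.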
